A study of Homo sapiens with 18 samples.

Results

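DDX3Yoe cells were compared with DDX3Xoe cells after both had received guide RNA 395, which directs Cas9 to the endogenous DDX3X gene. The comparison took 6 of the 18 libraries of the series, 3 of each line, chosen by the cell line and guide in their labels. All cells were KNS-42, an established glioma line that expressed Cas9 and was grown with puromycin. DDX3Yoe cells overexpressed a codon-optimised DDX3Y, and DDX3Xoe cells overexpressed a codon-optimised DDX3X. RNA was taken on day 7 after lentiviral transduction of the guide, and the 3′ ends of polyadenylated transcripts were sequenced. The other 12 libraries were, with 3 each, DDX3Yoe cells and DDX3Xoe cells with a control guide against AAVS1, a genomic site whose cutting is commonly used as a control, and parental cells, which carried neither transgene, with guide 395 or the AAVS1 guide. The labels do not name the promoter of either transgene or say whether a line was a clone or a pool. They leave out whether a replicate was its own culture, so every test here measures the spread between these libraries, which may be technical.

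DDX3X and DDX3Y are paralogous genes on the X and Y chromosomes that encode closely related DEAD-box RNA helicases. These enzymes use ATP to remodel RNA structure, and DDX3X is best known for helping ribosomes start on messages with structured leaders. DDX3X also joins stress granules and takes part in innate immune signalling after foreign RNA is sensed. The question addressed by the comparison was whether cells left to rely on DDX3Y resemble cells left to rely on transgenic DDX3X.

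The 18 libraries held between 5.67 and 13.2 M reads (M, 1e6). DDX3Yoe libraries with guide 395 held 9.81, 7.81 and 12.03 M reads, and DDX3Xoe libraries 7.80, 5.67 and 10.4 M reads. DDX3Xoe replicate 2 was the shallowest of all, with 15744 genes detected against 18668 to 20461 in the other 5, and it stood apart on the third principal component. Its depth bounds how well its low genes could be measured. Neural and glial markers were abundant in the 6 libraries: SOX2, the neural progenitor transcription factor, ranged from 14370 to 28885 in normalised read count, and GFAP, the astrocyte filament, from 1107 to 5827. NCAM1, S100B and OLIG2 of the same list of 10 were at 0 in all 6. The summed level of the 8 immune markers was 28.1 to 65.9 in DDX3Yoe cells and 14.8 to 47.2 in DDX3Xoe cells, with PTPRC, the pan-leukocyte marker, listed at 0 in 5 of the 6 libraries. Endothelial, epithelial and mature neuron or oligodendrocyte markers summed to under 50 in each of the 6.

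The targeted gene came first as a check of the labels. DDX3X (chrX:41333284-41364472, plus strand, GRCh38) had normalised read counts of 878, 739 and 653 in DDX3Yoe cells with guide 395, against 1416, 716 and 578 in DDX3Xoe cells with guide 395. Parental cells with the same guide held 861, 844 and 953. With the AAVS1 guide the values were 1379, 1557 and 1439 in DDX3Yoe cells, 668, 1504 and 1162 in DDX3Xoe cells, and 1780, 1923 and 1729 in parental cells. Both DDX3Xoe replicate 1 libraries went against their guide labels: the library labelled guide 395 was above the other guide 395 libraries of its line, and the library labelled AAVS1 lay within the range of the guide 395 libraries. Whether the labels of these 2 libraries were exchanged cannot be settled from the labels, and an exchange would touch each value here that uses either of them. Without both, limma called 0 genes between the lines with guide 395, with AAVS1 and in the difference between the guides, with 490, 191 and 300 at an unadjusted p under 0.05. DDX3X transcript was detected in every library with guide 395, and a read at the 3′ end does not show whether the target site was edited. The log2 difference, DDX3Yoe minus DDX3Xoe, was -0.16 (SE 0.30, 95% interval -0.79 to 0.48, 3 libraries each) and 0.22 without DDX3Xoe replicate 1, so its sign depended on that library.

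**Figure D1:**
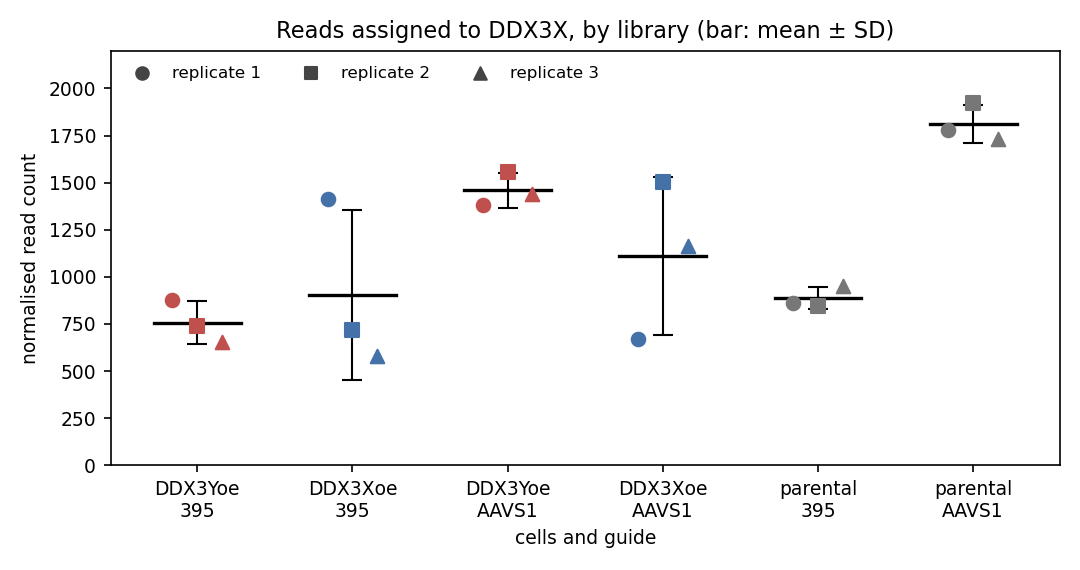
Normalised read count of DDX3X in each library, by cells and guide, with the mean and SD of 3 libraries as a line and bar. DDX3Xoe replicate 1 with guide 395 (1416) lies above every other library with that guide, and DDX3Xoe replicate 1 with AAVS1 (668) lies below every other library with AAVS1.

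The level of neither transgene could be read from these libraries. DDX3Y had 0 reads in all 18 libraries, those of DDX3Yoe cells included, so any reads from the codon-optimised DDX3Y were not assigned to the Y gene. Whether such reads were present was not tested. A count of 0 allows up to 3 reads, or 0.249 to 0.529 per M reads across the 6 libraries, which covers counting error only. How much codon-optimised DDX3X entered the DDX3X count was not tested. Equal or unequal transgene dose between the lines therefore cannot be read from these data, and the comparison is of cells as labelled.

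No gene separated the lines at the threshold. Across 15228 genes, limma with Benjamini-Hochberg adjustment called 0 (0.0%) at an adjusted p under 0.05, and the smallest adjusted p was 0.9996. At an unadjusted limma p under 0.05 there were 350 genes (2.3%), 261 higher (1.71% of those tested) and 89 lower (0.584%) in DDX3Yoe cells. Count models on the recovered reads also called 0: edgeR with 268 genes at an unadjusted p under 0.05, and DESeq2 with 363. Without each of the 6 libraries in turn limma also called 0, while the number at an unadjusted p under 0.05 ran from 193 without DDX3Yoe replicate 2 to 840 without DDX3Xoe replicate 3. It was 454 without DDX3Xoe replicate 1, 230 without DDX3Xoe replicate 2 and 208 without DDX3Yoe replicate 1. The median log2 difference over all genes was 0.02, and the median absolute difference was 0.22. The median within-line SD was 0.42. That SD is of single libraries and the difference is between means of 3, so their order does not show that the lines are alike.

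A gene that misses the threshold is not thereby shown to be alike, so the interval of each difference was read as well. For 6590 genes (43.3%) the whole 95% interval lay between -1 and 1 on the log2 scale, that is, it excluded a doubling or a halving. The bound was reached by 5325 genes (35.0%) without DDX3Xoe replicate 1. With replicate number added to the fit, it was reached by 7690 genes over all 18 libraries or 8243 within the compared libraries. It depended on the level of the gene: it held for 1365 of 1831 genes with a mean of at least 1000 (74.5%) and for 2051 of 3666 between 100 and 300 (55.9%), but for 469 of 2692 between 30 and 100 (17.4%) and for 0 of 1448 under 10. The median half-width of the interval was 0.62 in the highest class and 2.01 in the lowest. Low genes could therefore differ widely between the lines without being detectable here.

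In some genes the 3 libraries of each line did not overlap. All 3 DDX3Yoe values lay above all 3 DDX3Xoe values for 561 genes (3.68%), and below them for 544 (3.57%). With groups of 3 and interchangeable libraries, and leaving ties aside, chance alone would separate a larger share of genes in each direction than was seen. A lack of overlap, for these genes and for those named below, therefore does not show a line difference. From the genes without overlap, 24 were named by the size of their moderated t statistic. None passed the test, and each is given as values.

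BICDL1 (chr12:119989869-120094494, plus strand), an adaptor that links vesicles to dynein, came first among the genes with the higher DDX3Yoe values. Its normalised read counts were 96.9, 101 and 56.8 in DDX3Yoe cells, against 36.5, 31.4 and 42.1 in DDX3Xoe cells. The groups did not overlap, and the log2 difference was 1.15 (SE 0.33, interval 0.46 to 1.84). COX11 (chr17:54951902-54968785, minus strand), a copper chaperone for assembly of cytochrome c oxidase, had 377, 419 and 416 in DDX3Yoe cells, against 271, 230 and 289 in DDX3Xoe cells. It had the narrowest interval of the 12, from 0.20 to 1.04 around 0.62. RGS14 (chr5:177357837-177372601, plus strand), a regulator of G protein signalling, had 185, 189 and 177 in DDX3Yoe cells, against 59.4, 77.2 and 146 in DDX3Xoe cells. The DDX3Yoe values lay close together and the DDX3Xoe values spread, with replicate 3 nearest to DDX3Yoe cells. TCF7L1 (chr2:85133410-85310388, plus strand), a transcription factor at the end of the Wnt pathway, had 216, 220 and 156 in DDX3Yoe cells, against 112, 84.3 and 110 in DDX3Xoe cells. Its log2 difference was 0.94 (SE 0.34). The other 8 were PRRT1, KLF16, TMSB4XP4, SYT5, FRY, MANSC1, EID2B and ZSWIM4, with log2 differences between 0.81 and 1.43. TMSB4XP4 is a processed pseudogene of TMSB4X, so reads may be split between them and its value is uncertain.

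Among the genes with the lower DDX3Yoe values, RNGTT (chr6:88610272-88963721, minus strand), the enzyme that starts the cap on messenger RNA, had close replicates. Its normalised read counts were 190, 196 and 181 in DDX3Yoe cells, against 299, 293 and 263 in DDX3Xoe cells. The lines did not overlap, with a log2 difference of -0.59 (SE 0.22, interval -1.05 to -0.13). PLCG1 (chr20:41136960-41196801, plus strand), a phospholipase that acts below receptor tyrosine kinases, had 220, 206 and 205 in DDX3Yoe cells, against 359, 352 and 275 in DDX3Xoe cells. DSEL (chr18:67506582-67516980, minus strand), an epimerase of dermatan sulfate synthesis, had 89.2, 81.4 and 103 in DDX3Yoe cells, against 158, 201 and 151 in DDX3Xoe cells. PIK3CD (chr1:9651732-9729114, plus strand), a catalytic subunit of phosphoinositide 3-kinase, had 28.1, 28.2 and 52.6 in DDX3Yoe cells, against 78.8, 80.0 and 71.1 in DDX3Xoe cells. Without DDX3Xoe replicate 1, where the naming rule itself required the same sign, the log2 differences of these 4 were -0.55 for RNGTT, -0.56 for PLCG1, -0.93 for DSEL and -1.10 for PIK3CD. The other 8 were TUBA3FP (a pseudogene), PACSIN2, ZNF573, DEF8, TRMU, MRPL14, ZFP90 and PTRHD1, between -1.28 and -0.62. TRMU modifies mitochondrial transfer RNA and MRPL14 is a protein of the mitochondrial ribosome.

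With the AAVS1 guide, genes of this set did not always keep their sign. BICDL1 averaged 42.7 ± 4.52 in DDX3Yoe cells and 64.4 ± 7.81 in DDX3Xoe cells with that guide (SD, n = 3 each), a log2 difference of -0.58. RNGTT averaged 249 ± 42.2 in DDX3Yoe cells and 211 ± 30.2 in DDX3Xoe cells with AAVS1, a log2 difference of 0.23. The difference between the 2 guides in the line difference was tested over all genes, and limma called 0 of 15228, with 227 at an unadjusted p under 0.05 (edgeR 0 and 247, DESeq2 0 and 338). The interval of that difference lay inside -1 to 1 for 2617 genes (17.2%). DDX3Yoe minus DDX3Xoe with the AAVS1 guide itself gave 0 calls by limma, edgeR and DESeq2, with 136, 176 and 251 genes at an unadjusted p under 0.05, and 6794 bounded genes (44.6%).

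Distances between whole libraries of the 2 lines lay within the range of those between replicates. The distance between a pair of libraries was taken as the median absolute log2 difference over the tested genes. Across the 9 pairs of a DDX3Yoe and a DDX3Xoe library with guide 395 it ranged from 0.34 to 0.54, with a median of 0.41. Within lines it was 0.33 to 0.44 for the 3 DDX3Yoe pairs (median 0.35) and 0.45 to 0.60 for the 3 DDX3Xoe pairs (median 0.47). The median distance between the lines thus lay between the medians within each. Each DDX3Xoe pair includes replicate 1, whose label is in doubt, or replicate 2, the shallowest library. It was 0.47 for replicates 1 and 2, 0.45 for 1 and 3, and 0.60 for 2 and 3. DDX3Xoe replicate 3 lay 0.38, 0.41 and 0.34 from DDX3Yoe replicates 1, 2 and 3. To parental cells with guide 395 the median distance was 0.50 from DDX3Yoe cells and 0.55 from DDX3Xoe cells. To parental cells with AAVS1 it was about as large, at 0.52 and 0.53. Between replicates of parental cells with guide 395 the median was 0.48. Between guide 395 and AAVS1 within a line it was 0.35 for DDX3Yoe cells and 0.53 for DDX3Xoe cells. Spearman correlations across genes, which are not independent replicates, had a median of 0.967 between the lines, 0.974 within DDX3Yoe cells and 0.959 within DDX3Xoe cells.

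Gene lists for the known work of DDX3 proteins were read by the number of members above 0, the median log2 difference and the number bounded. Over all genes tested, 7996 (52.5%) were above 0, the median was 0.02 and 43.3% were bounded. No member of any list was called in either direction. The DEAD-box and DEAH-box helicases, the family of DDX3X itself, had 21 of 44 tested members above 0, a median of -0.01 and 35 bounded (79.5%). DHX40, a DEAH-box helicase, had 2399, 2096 and 2443 in DDX3Yoe cells, against 3364, 2755 and 2689 in DDX3Xoe cells. Its groups did not overlap, and its log2 difference of -0.34 had an interval of -0.71 to 0.03. DDX39B, a helicase of splicing and messenger RNA export, had 88.2, 108 and 91.9 in DDX3Yoe cells, against 46.8, 57.2 and 65.9 in DDX3Xoe cells. Its log2 difference was 0.76 with guide 395 and 0.85 with AAVS1, neither past the threshold.

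Stress granule genes had 15 of 29 members above 0, a median of 0.00 and 25 bounded (86.2%). G3BP1, a nucleator of stress granules and a partner of DDX3X, had 739, 732 and 803 in DDX3Yoe cells, against 606, 566 and 599 in DDX3Xoe cells. The groups did not overlap, and the interval of its log2 difference of 0.36 ran from -0.22 to 0.94. PABPC1, the main cytoplasmic poly(A)-binding protein, had 5580, 4740 and 5340 in DDX3Yoe cells, against 3557, 3482 and 4713 in DDX3Xoe cells. Again every DDX3Yoe value was above every DDX3Xoe value, with DDX3Xoe replicate 3 just below DDX3Yoe replicate 2.

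Translation initiation and elongation factors had 13 of 43 tested members above 0, a median of -0.11 and 30 bounded (69.8%). EIF4A1, the helicase of the cap-binding complex, had 310, 361 and 285 in DDX3Yoe cells, against 517, 597 and 314 in DDX3Xoe cells. The groups overlapped, since DDX3Xoe replicate 3 lay among the DDX3Yoe libraries. EIF4G1, the scaffold of that complex, averaged 4543 ± 657 in DDX3Yoe cells and 4317 ± 476 in DDX3Xoe cells (SD, n = 3 each), with an interval of -0.61 to 0.75. Ribosomal protein genes had 22 of 78 above 0, a median of -0.13 and 36 bounded (46.2%), and leaving out each library gave medians from -0.33 (13 of 78 above 0, without DDX3Xoe replicate 2) to 0.00 (40 of 78, without DDX3Xoe replicate 1). Many ribosomal protein genes have processed pseudogenes that can share reads. Proteasome subunits had 12 of 31 above 0, a median of -0.11 and 24 bounded (77.4%).

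**Figure D2:**
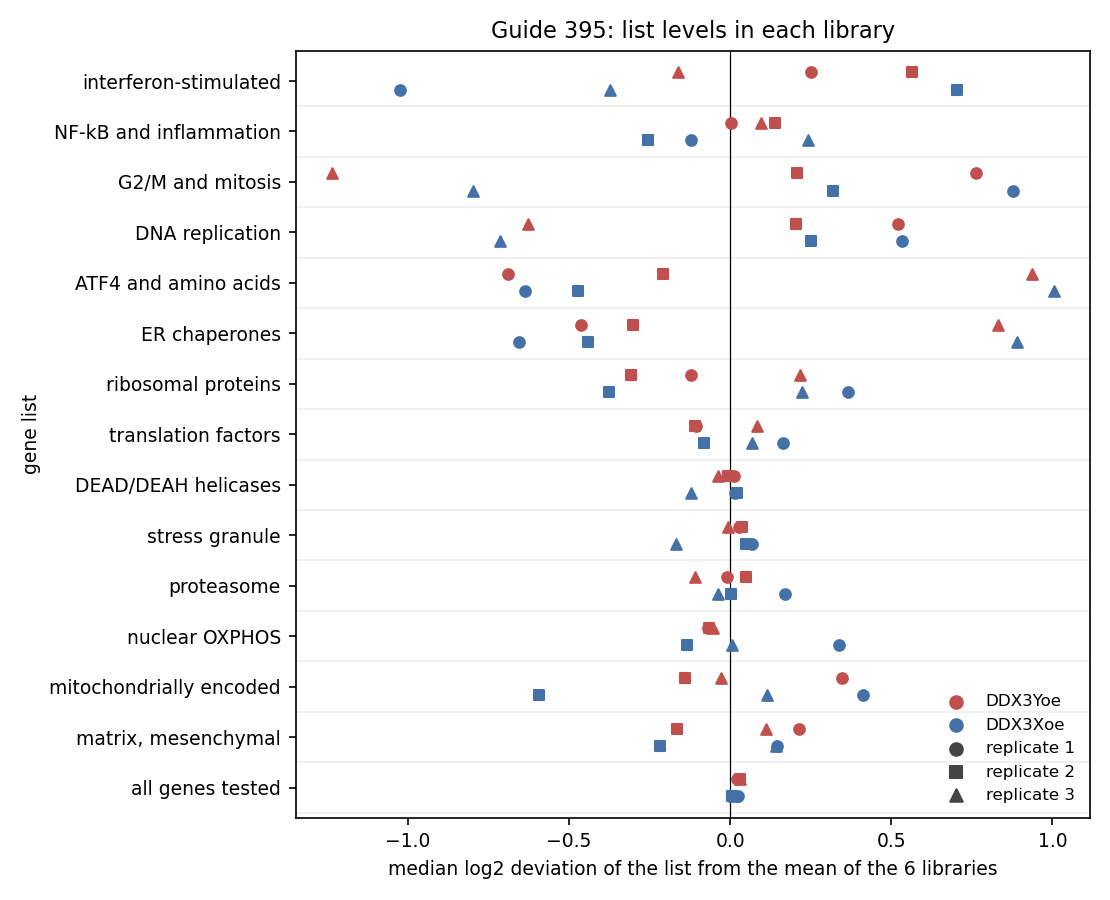
Median log2 deviation of each gene list from the mean of the 6 libraries, for DDX3Yoe (upper points) and DDX3Xoe (lower points) libraries with guide 395, with replicates 1, 2 and 3 as circles, squares and triangles. Helicase and stress granule lists stay within -0.17 to 0.07, while interferon, mitosis, ATF4 and ER chaperone lists spread over 1.54 to 1.73 within DDX3Xoe cells.

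Interferon-stimulated genes mostly had higher DDX3Yoe values, and this rested on 1 library. These genes encode antiviral and antigen-presentation proteins and are switched on through an interferon-responsive promoter element. Of 54 tested members, 53 were above 0, the median log2 difference was 0.38 and 4 were bounded (7.41%), but none was called. Without DDX3Xoe replicate 1 the median was 0.04 with 31 of 54 above 0, and leaving out other libraries gave medians from 0.21 (without DDX3Yoe replicate 2) to 0.94 (without DDX3Xoe replicate 2). The list's deviation from the mean of the 6 libraries was 0.25, 0.56 and -0.16 in DDX3Yoe cells, against -1.02, 0.70 and -0.37 in DDX3Xoe cells. DDX3Xoe replicate 1 was thus the lowest and DDX3Xoe replicate 2 the highest, with all DDX3Yoe libraries between them. On the same scale parental cells lay at 1.40, 0.98 and 1.24 with guide 395, and at -0.67, -0.90 and 0.19 with AAVS1. With the AAVS1 guide the list's median line difference was -0.05, with 19 of 54 above 0.

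The promoters of 3 members are shown because the list moved together between libraries and because their letters hold the element named above. Sequences are RefSeq windows on GRCh38.p14, from 250 bases before to 50 after the gene's start, read 5′ to 3′ on the gene's strand. Capitals mark matches to GAAA, 2 bases of any kind and GAAA again, searched on both strands, and overlapping matches are joined. B2M lies at chr15:44711267-44711566 (plus strand), BST2 at chr19:17405581-17405880 (minus strand) and IFI27 at chr14:94110486-94110785 (plus strand).
B2M: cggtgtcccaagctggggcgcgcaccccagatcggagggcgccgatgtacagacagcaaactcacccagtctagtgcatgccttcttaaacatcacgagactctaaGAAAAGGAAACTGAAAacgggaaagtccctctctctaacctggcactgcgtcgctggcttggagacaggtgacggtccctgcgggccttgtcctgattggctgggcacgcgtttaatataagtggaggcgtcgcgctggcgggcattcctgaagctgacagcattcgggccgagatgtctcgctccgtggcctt
BST2: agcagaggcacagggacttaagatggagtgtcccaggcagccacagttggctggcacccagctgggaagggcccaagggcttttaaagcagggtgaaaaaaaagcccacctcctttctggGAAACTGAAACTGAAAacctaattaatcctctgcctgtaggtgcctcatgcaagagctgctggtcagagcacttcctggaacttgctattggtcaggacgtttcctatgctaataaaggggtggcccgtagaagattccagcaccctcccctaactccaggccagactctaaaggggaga
IFI27: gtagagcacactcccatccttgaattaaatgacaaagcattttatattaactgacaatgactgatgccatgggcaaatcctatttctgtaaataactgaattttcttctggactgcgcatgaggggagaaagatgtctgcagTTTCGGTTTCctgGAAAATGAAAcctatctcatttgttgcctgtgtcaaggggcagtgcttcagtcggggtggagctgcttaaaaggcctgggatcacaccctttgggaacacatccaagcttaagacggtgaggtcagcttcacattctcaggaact
The motif occurred in the windows of 24 of the 41 tested members found in the table (58.5%), against 1255 of 35116 windows overall (3.57%), in the table as used here. IFI35, a list member named by its small p, had 0 matches in its window and is not shown. A match is a description of the letters and not of a bound site.

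B2M, the shared light chain of class I antigen-presenting molecules, had normalised read counts of 37888, 79199 and 27023 in DDX3Yoe cells, against 10114, 39121 and 23922 in DDX3Xoe cells. The groups overlapped, since DDX3Xoe replicate 2 lay above DDX3Yoe replicates 1 and 3, and the log2 difference was 1.03 (interval -0.01 to 2.08). It was 0.50 without DDX3Xoe replicate 1. BST2, a membrane tether of budding viruses, had 1055, 3732 and 1324 in DDX3Yoe cells, against 347, 2428 and 889 in DDX3Xoe cells. IFIT3, an antiviral protein that acts with IFIT1 on foreign RNA, had 6716, 8167 and 4543 in DDX3Yoe cells, against 2834, 12692 and 3625 in DDX3Xoe cells. In each of B2M, BST2 and IFIT3, DDX3Xoe replicate 1 was the lowest of the 6 libraries. For IFIH1, the cytoplasmic sensor MDA5, the values were 1515, 1963 and 866 in DDX3Yoe cells, against 629, 2612 and 892 in DDX3Xoe cells, and the log2 difference of 0.27 was -0.16 without DDX3Xoe replicate 1.

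NF-kB and inflammation genes had 16 of 23 tested members above 0, a median of 0.19 and 5 bounded (21.7%). Leaving out each library in turn gave medians from 0.08 (13 of 23 above 0, without DDX3Xoe replicate 2) to 0.37 (13 of 23, without DDX3Xoe replicate 3). NFKB2, a precursor and subunit of the factor, had 737, 621 and 475 in DDX3Yoe cells, against 353, 363 and 572 in DDX3Xoe cells. ICAM1, an adhesion molecule induced by NF-kB, had 63.0, 61.9 and 25.9 in DDX3Yoe cells, against 20.6, 14.3 and 38.6 in DDX3Xoe cells. In both genes DDX3Yoe replicate 3 and DDX3Xoe replicate 3 ran against the rest of their lines, and the groups overlapped.

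Parental cells are set beside these differences, since they received guide 395 with no transgene. Guide 395 against AAVS1 in parental cells called 271 genes (1.78%) by limma, 149 higher and 122 lower. This comparison shares no library with that of the 2 lines. Since the genes were chosen by the parental test, their parental medians are enlarged by that choice, unlike their medians between the lines. Both comparisons use the same spread for each gene, taken over all 18 libraries, so the choice also favours genes with narrow intervals. The median half-width between the lines was 0.72 in the higher set and 0.64 in the lower set, against 0.85 over all genes. The bounded shares of these sets therefore do not show likeness of the lines. In the 149 higher genes the median log2 difference was 1.68 in parental cells, and DDX3Yoe minus DDX3Xoe with guide 395 had a median of 0.25, with 112 of 149 above 0 and 70 bounded (47.0%). In the 122 lower genes the parental median was -1.50, and DDX3Yoe minus DDX3Xoe had a median of -0.17, with 36 of 122 above 0 and 71 bounded (58.2%). Without DDX3Xoe replicate 1 the medians were 0.10 and -0.11, with 90 of 149 and 49 of 122 above 0. Leaving out each of the 6 libraries in turn gave medians of 0.10 to 0.33 for the higher set and of -0.24 to -0.11 for the lower set. Of the 149 higher genes, 11 (7.38%) belong to the interferon-stimulated list, of which they are 20%, so the set is not independent of that list. None of the 271 was called between the lines, and the AAVS1 medians were 0.00 and 0.04.

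**Figure D3:**
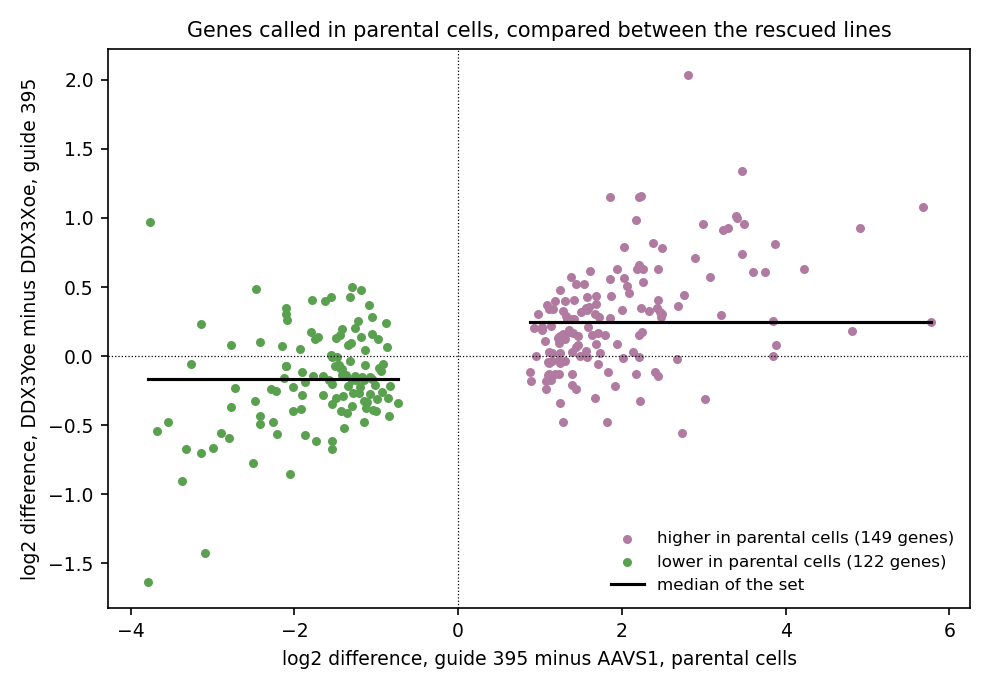
For the 271 genes called by limma between guide 395 and AAVS1 in parental cells, the log2 difference in parental cells (horizontal) against the log2 difference, DDX3Yoe minus DDX3Xoe, with guide 395 (vertical). The black lines are the medians, 0.25 for the 149 genes higher and -0.17 for the 122 genes lower in parental cells. The parental medians were 1.68 and -1.50, enlarged by the choice of genes on the parental test.

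Single genes of these sets are given for both lines beside parental cells. They were picked after their values were seen, by the size of their difference in parental cells, so a gap to the parental libraries with guide 395 was built into the choice. HCP5, an interferon-inducible long non-coding RNA, had 95, 396 and 78.6 in DDX3Yoe cells and 44.5, 211 and 57.1 in DDX3Xoe cells, against 1144, 1010 and 1215 in parental cells with guide 395. Every library of both lines was below every one of parental cells with that guide. IFI27, an interferon-induced mitochondrial protein, averaged 953 ± 856 in DDX3Yoe cells and 481 ± 385 in DDX3Xoe cells, against 3123 ± 869 in parental cells with guide 395 and 339 ± 188 in parental cells with AAVS1 (SD, n = 3 each). COL1A1, a chain of type I collagen, had 344, 198 and 173 in DDX3Yoe cells and 183, 247 and 211 in DDX3Xoe cells, against 48.4, 48.2 and 59.4 in parental cells with guide 395. The lines overlapped in COL1A1, and the interval of their difference ran from -0.57 to 0.77. ACTA2, smooth muscle actin, had 632, 397 and 485 in DDX3Yoe cells and 958, 502 and 700 in DDX3Xoe cells, against 180, 243 and 188 in parental cells with guide 395. OAS2, an antiviral enzyme that makes the activator of RNase L, lies outside these sets, since it was not called in parental cells. It overlapped with parental cells, with 1509, 2407 and 683 in DDX3Yoe cells and 410, 2831 and 782 in DDX3Xoe cells, against 2317, 1973 and 2503 in parental cells with guide 395. The highest library of each line there lay within or above the parental range. Whether differences among lines reflect fewer cells of a state or less RNA per cell cannot be told apart in bulk libraries.

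Genes of mitosis, the ATF4 programme and ER chaperones varied far more between replicates than between lines. The mitotic list had 4 of 43 above 0, a median of -0.29 and 0 bounded. Its sign changed when some single libraries were left out. The median was 0.13 without DDX3Xoe replicate 1 (30 of 43 above 0) and 0.33 without DDX3Yoe replicate 3 (34 of 43). It was -0.63 without DDX3Yoe replicate 1 and -0.73 without DDX3Xoe replicate 3 (1 of 43 in each). It was -0.17 without DDX3Xoe replicate 2. Its deviations were 0.76, 0.21 and -1.24 in DDX3Yoe cells, against 0.88, 0.32 and -0.80 in DDX3Xoe cells. Replicate 3 was the lowest and replicate 1 the highest in both lines. At each replicate number the DDX3Yoe deviation was below the DDX3Xoe deviation. Leaving out 1 library gives the lines unequal replicate numbers, so the leave-out medians also carry the replicate difference. MKI67, a marker of cycling cells, had 2320, 1163 and 271 in DDX3Yoe cells, against 2129, 1668 and 410 in DDX3Xoe cells. PLK1, a mitotic kinase, had 971, 447 and 215 in DDX3Yoe cells, against 1009, 640 and 450 in DDX3Xoe cells. DNA replication genes had 22 of 46 above 0 and a median of 0.00, with deviations of 0.52, 0.21 and -0.63 in DDX3Yoe cells, against 0.53, 0.25 and -0.71 in DDX3Xoe cells. Their median ran from -0.31 without DDX3Xoe replicate 3 (7 of 46 above 0) to 0.37 without DDX3Yoe replicate 3 (38 of 46). These leave-out medians carry the replicate difference as well.

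ATF4 is the transcription factor of the amino acid and integrated stress response. Its list had 14 of 30 above 0 and a median of -0.01, with deviations of -0.69, -0.21 and 0.94 in DDX3Yoe cells, against -0.64, -0.47 and 1.00 in DDX3Xoe cells. The median near 0 depended on keeping both replicate 3 libraries. It was -0.40 without DDX3Yoe replicate 3 (3 of 30 above 0) and 0.53 without DDX3Xoe replicate 3 (29 of 30). Here and in the ER chaperone list, such leave-out medians also carry the level shared by replicate 3 of both lines. ASNS, asparagine synthetase, had 843, 1022 and 3518 in DDX3Yoe cells, against 773, 1127 and 3789 in DDX3Xoe cells. Replicate 3 of both lines was more than 3 times the other libraries. The ER chaperone list had 12 of 20 above 0 and a median of 0.03, which was -0.42 without DDX3Yoe replicate 3 (1 of 20) and 0.42 without DDX3Xoe replicate 3 (19 of 20). HSPA5, the ER chaperone BiP, had 9490, 8957 and 43617 in DDX3Yoe cells, against 11062, 10983 and 59557 in DDX3Xoe cells. Replicate 3 libraries with AAVS1 stood at 0.92 in DDX3Yoe cells and 0.94 in DDX3Xoe cells for the ATF4 list, against -0.75 to -0.39 in the 4 other libraries of those lines with that guide. The part of this replicate difference in any line difference was not tested, and the bounded counts were low, at 2 of 30 and 2 of 20.

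Energy and matrix lists had medians between -0.13 and 0.06. Nuclear genes of oxidative phosphorylation had 20 of 63 above 0, a median of -0.11 and 40 bounded (63.5%), and leaving out each library gave medians from -0.19 (without DDX3Xoe replicate 2) to -0.01 (without DDX3Xoe replicate 1, 31 of 63 above 0). UQCRQ, a subunit of complex III, had 1278, 1217 and 1454 in DDX3Yoe cells, against 2028, 1791 and 1602 in DDX3Xoe cells, with no overlap and an interval of -0.95 to 0.04. Mitochondrially encoded genes had 11 of 15 above 0 and a median of 0.03, but their sign depended on single libraries, with a median of 0.31 without DDX3Xoe replicate 1 (15 of 15 above 0), -0.22 without DDX3Xoe replicate 2 (3 of 15) and -0.13 without DDX3Yoe replicate 1 (7 of 15). Glycolysis genes had 12 of 24 above 0 and a median of -0.02, heat shock genes 8 of 18 and -0.04, p53 targets 8 of 21 and -0.12, and cholesterol synthesis genes 8 of 22 and -0.13. Matrix and mesenchymal genes had 20 of 35 above 0 and a median of 0.04, and Wnt pathway genes 19 of 32 and 0.06.

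Regulatory and neural lists gave a few members worth their values. JUND, a subunit of the AP-1 transcription factor, had 1254, 1163 and 774 in DDX3Yoe cells, against 394, 526 and 944 in DDX3Xoe cells. The groups overlapped through their replicate 3 libraries, and the log2 difference was 0.84 (interval 0.21 to 1.47). DLX1, a homeobox factor of forebrain interneurons, had 304, 274 and 228 in DDX3Yoe cells, against 154, 120 and 155 in DDX3Xoe cells, with no overlap. SOX2 had 28885, 24904 and 16983 in DDX3Yoe cells, against 14370, 18564 and 23241 in DDX3Xoe cells, and the groups overlapped. BAX, a promoter of cell death and a p53 target, had 417, 402 and 234 in DDX3Yoe cells, against 132, 123 and 320 in DDX3Xoe cells. Immediate early genes had 14 of 24 above 0 and a median of 0.04, glioma and neural progenitor genes 15 of 22 and 0.14, and neural adhesion genes 6 of 16 and -0.10.

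Other X-linked genes with a Y partner were read beside DDX3X. All 12 X copies were tested, 4 were above 0, the median was -0.07 and 8 were bounded (66.7%). Leaving out each library gave medians from -0.32 (without DDX3Xoe replicate 3) to 0.04 (without DDX3Xoe replicate 1). The Y copies of all 12 pairs had 0 reads in every library. KDM6A, a histone demethylase, had 80.5, 61.9 and 114 in DDX3Yoe cells, against 114, 166 and 124 in DDX3Xoe cells, with 114.3 in DDX3Yoe replicate 3 and 114.2 in DDX3Xoe replicate 1 at the boundary. EIF1AX, a factor of start codon selection, had 944, 839 and 1039 in DDX3Yoe cells, against 1439, 1325 and 907 in DDX3Xoe cells, and the groups overlapped. KDM5C and ZFX ran the other way without overlap, and neither was called. KDM5C had 826, 684 and 697 in DDX3Yoe cells, against 492, 619 and 682 in DDX3Xoe cells. ZFX had 379, 330 and 295 in DDX3Yoe cells, against 273, 277 and 248 in DDX3Xoe cells. By position, the median log2 difference lay between -0.05 and 0.05 on every chromosome except X and 19. On X it was -0.054, with 210 of 483 genes above 0, and it was 0.016 without DDX3Xoe replicate 1 and 0.039 with AAVS1. On chromosome 19 it was 0.12, with 683 of 1081 genes above 0. On chromosome 19 the median was 0.05 without DDX3Xoe replicate 1, 0.18 without DDX3Xoe replicate 3 and -0.04 with AAVS1.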

How the data were processed

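Per the labels' protocols, a 3′ messenger RNA kit was used to make 18 libraries from KNS-42 cells with Cas9. The authors deposited a normalised signal for 58050 gene identifiers. As the values show, it is a gene count divided by 1 size factor per library: dividing each column by its step gave whole reads for 100% of values, within a tolerance of 0.01. Tools named in the submitters' processing notes are limma, featureCounts 1.5.1, RSEM 1.3.0 and STAR 2.5.2b, with the build GRCh38. Whether counting used strand is not given in the sources used here, so antisense and overlapping genes cannot be told apart. Size factors assume that most genes do not differ in total between libraries. GENCODE annotation of GRCh38 supplied symbols and positions, and promoter windows on chromosome 8 were not used.

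Values were tested as log2(value + 1) with limma 3.58.1 in R 4.3.3, moderated with an intensity trend, with 6 group means over 18 libraries and 12 residual degrees of freedom. Log2 differences are on this scale, which understates those of low genes. A gene entered when 3 or more libraries reached 10, and the calling threshold was an adjusted p (Benjamini-Hochberg) of 0.05. A difference was bounded where its 95% interval lay inside -1 to 1. Alternatives were edgeR 4.0.16 quasi-likelihood and DESeq2 1.42.0 on the recovered reads, other pseudocounts, filters, scalings and fits, and leaving out each library. The fit was checked on simulated data with independent libraries and the same spread setting for all genes. Such data hold no level shared by replicate number, so the check does not cover that part of the spread here. Same-numbered libraries of the lines correlated at 0.03, 0.17 and 0.09 in their deviations with guide 395, and at 0.23, 0.06 and 0.39 with AAVS1. Not every pair was over 0.1, a cut-off chosen here, so numbers were not taken as pairs. All of these correlations were above 0, however, and replicate 3 libraries shared some list levels. The main intervals therefore include any spread that replicate numbers share. With a replicate block, 0 genes were called and 7690 or 8243 differences were bounded, against 6590 in the main fit. Replicate pairs all differed beyond sampling noise.

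The members, gene lists and tests were chosen with earlier results of these data known. Named genes were DDX3X, DDX3Y, the 12 genes in each direction with the largest moderated t among those with a mean of at least 50, no overlap between lines and the same sign without DDX3Xoe replicate 1 (no gene being called), and the 3 members of each list with the smallest p. Other genes are given as examples chosen after their values were seen.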

Additional observations from a re-analysis of the deposited data

How the results depend on the processing

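Under the 23 settings tried for the line difference with guide 395, the count of called genes was 0 except with no filter on low values, where limma called 1: SNORD116-8, at 3.88, 2.17 and 3.51 in DDX3Yoe cells and 0 in all DDX3Xoe libraries, about the level of a few reads. With no filter, 3 genes were called with AAVS1 (AP000907.2, AC019227.1 and AC069222.1) and 11130 differences were bounded, because more genes entered. Bounded differences numbered 4087 without replicate 1 of the compared groups and 4748 to 5367 without each single library, with fewer libraries. A replicate block, in either form tried, gave the following: 0 genes called and 7690 or 8243 bounded differences. Of 1945 values for 93 named genes, 6 in 4 genes took the other sign and 0 passed the threshold: DDX3X at 0.22 without DDX3Xoe replicate 1 or both DDX3Xoe replicate 1 libraries and 0.11 without replicate 1 of both lines, CANX at 0.11 and CRELD2 at 0.24 without DDX3Xoe replicate 3, and SOX2 at -0.014 without replicate 1 of both lines. Leaving out each library gave -0.42 to 0.22 for DDX3X, -0.60 to 0.11 for CANX and -0.91 to 0.24 for CRELD2. The causes were not tested. Of 483 list medians, 12 moved beyond the replicate spread. Depth limits what low genes can show, DDX3Xoe replicate 2 most.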

Other observations

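A few abundant genes varied between libraries in a common pattern that followed neither line nor guide. TMSB4X, which encodes an actin-binding peptide, had normalised read counts of 234, 1001 and 2803 in DDX3Yoe cells with guide 395, against 1189, 1069 and 147 in DDX3Xoe cells. In RPS7, RPS18, PFN1, CYR61 and RCC2 too, replicate 1 was the lowest and replicate 3 the highest of the DDX3Yoe libraries, and PFN1, which encodes profilin, had 308, 808 and 1154 in DDX3Yoe cells, against 859, 846 and 182 in DDX3Xoe cells. RPL10P3, a pseudogene, ran the other way, with 4094, 2509 and 1667 in DDX3Yoe cells, against 396, 719 and 3151 in DDX3Xoe cells. TMSB4X reached 19340 in DDX3Xoe replicate 1 and 160 in DDX3Xoe replicate 2 with AAVS1. These genes have close copies or pseudogenes in several cases, and the part of read assignment was not tested.

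TXNIP, a regulator of glucose uptake, and GDF15, a stress-induced cytokine, varied most within lines among the 5373 genes with a mean of at least 300. TXNIP had 1515, 1201 and 70.1 in DDX3Yoe cells, against 698, 2116 and 79.9 in DDX3Xoe cells. GDF15 had 242, 208 and 1879 in DDX3Yoe cells, against 156, 159 and 2518 in DDX3Xoe cells. In both genes replicate 3 of each line stood apart from its other libraries in the same direction.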
